A study of Arabidopsis thaliana with 6 samples.

Results

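Pirins are small proteins of the cupin superfamily, which share a double-stranded beta-barrel fold, and they occur from bacteria to plants and animals. In human cells pirin is a nuclear, iron-binding partner of transcriptional regulators, and bacterial and human pirins can degrade the flavonol quercetin. In Arabidopsis thaliana the founding member PRN (PIRIN1, AT3G59220) was found as a binding partner of GPA1, the alpha subunit of the heterotrimeric G protein, and acts in abscisic acid and light responses of germinating seeds and seedlings. Its paralogue PRN2 (AT2G43120) binds and stabilises the xylem cysteine protease XCP2 and influences lignin composition from cells next to the water-conducting vessels.

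The family was taken as the genes PRN, PRN2, AT1G50590 and AT3G59260, each through a probe set assigned to exactly 1 gene. All 4 were found among the 16550 genes that could be named on the array. The rule asked for the probe set with the highest mean, but each gene had 1 such probe set and 0 probe sets shared with another gene, so no choice between probe sets was made. The family itself was chosen by a known result of these arrays, the difference of PRN between the groups, so the p-value of PRN below is no independent evidence.

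Expression was measured on 6 arrays, with replicates 1 to 3 of protoplasts sorted as YFP-negative and the same numbers for YFP-positive protoplasts. All 6 came from cotyledons of seedlings carrying SEOR1pro::SEOR1-YFP, in which the promoter of the sieve element gene SEOR1 drives its own protein joined to YFP. Seedlings were 6 days old, and all cotyledons had spent 72 hours in a medium with 10 μM bikinin, an inhibitor of GSK3-like kinases, 0.25 mg/L of the cytokinin kinetin and 1.25 mg/L of the synthetic auxin 2,4-D. This culture, called VISUAL, turns leaf mesophyll cells into vascular cells, and there was no uncultured group. YFP-positive cells are called phloem by the submitters and YFP-negative cells non-phloem, so the negative group can hold any other cell of the cotyledon. RNA was amplified before labelling. The labels say neither whether arrays of one number share a culture nor whether the replicates were separate cultures, so the p-values cover the scatter of these 6 arrays, part or all of which may be technical.

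Few marker genes could be used to check the sort. SEOR1 was not analysed here, and 10 of 34 listed cell type markers were measured under a name. CLE45, a peptide gene of the early phloem, stood at 4.40, 3.47 and 4.56 on the log2 scale on the YFP-positive arrays and at 2.20, 1.44 and 2.34 on the YFP-negative arrays of numbers 1, 2 and 3. The groups did not overlap, as for 9.3% of all genes in either direction. Over all genes CLE45 passed only with the replicate number in the fit (adjusted p = 0.0444 in limma, against 0.0951 without). The other 3 measured phloem genes of 13 listed, OPS, CLE25 and CLE26, overlapped between groups. Of 8 xylem markers 1 was measured, GUT2, at 1.65 to 3.50 in the negative and 1.21 to 2.46 in the positive arrays.

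PRN was the pirin gene that separated the groups. Its level was 6.91, 7.50 and 8.45 on the log2 scale in YFP-negative replicates 1, 2 and 3, and 3.81, 4.13 and 4.58 in YFP-positive replicates 1, 2 and 3. Every YFP-positive value lay below every YFP-negative value, with 2.33 between the nearest arrays, while the values spread over 1.55 within the negative and 0.77 within the positive group. The means were 7.62 ± 0.78 (SD, n = 3) in YFP-negative and 4.17 ± 0.39 (SD, n = 3) in YFP-positive cells. PRN was thus 10.9-fold lower in YFP-positive cells on the deposited scale (95% interval 5.05 to 23.6), or -3.45 ± 0.46 (difference and SE) in log2 units. In limma PRN fell at an adjusted p of 0.0321 over 16550 genes (unadjusted p = 0.000252). In sorted populations such as these, fewer cells with the transcript and less transcript per cell cannot be told apart.

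**Figure D1:**
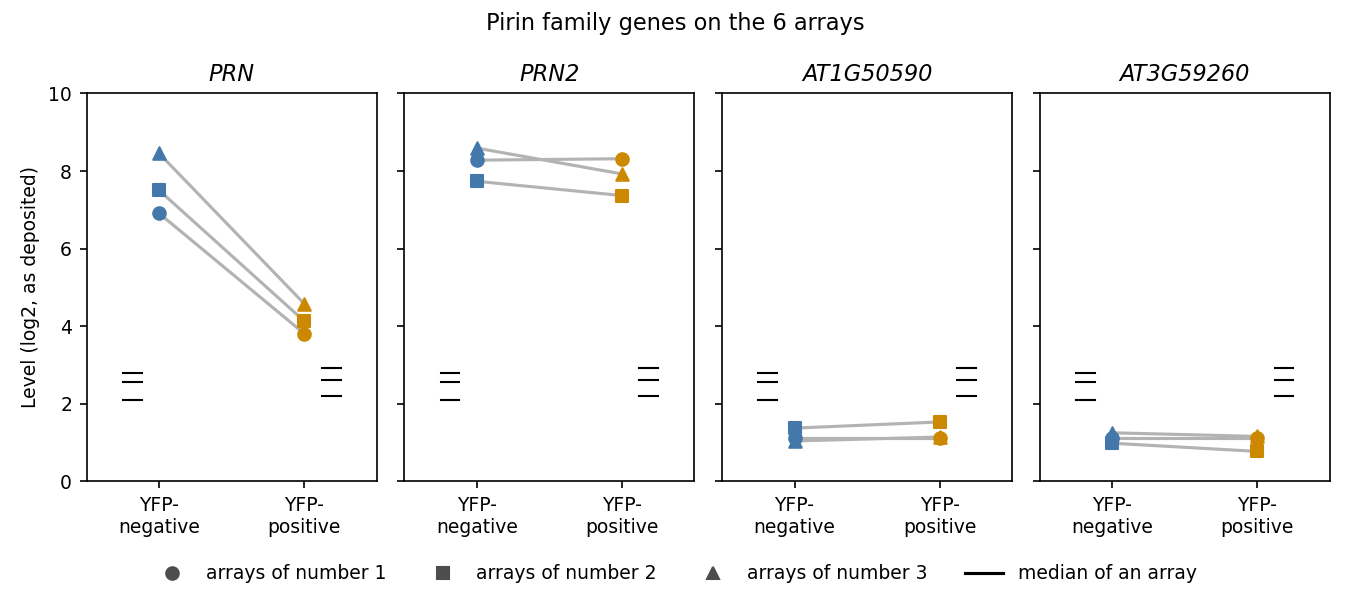
Level of each pirin gene on the deposited log2 scale in YFP-negative (blue) and YFP-positive (orange) arrays, with grey lines joining arrays of the same number and black ticks at the median of each array. PRN lies at 6.91 to 8.45 on YFP-negative and at 3.81 to 4.58 on YFP-positive arrays, PRN2 stays between 7.37 and 8.59, and AT1G50590 and AT3G59260 lie under every array median.

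The PRN difference was present in each pair of same-numbered arrays. It was -3.10 in number 1, -3.37 in number 2 and -3.88 in number 3, an SD of 0.39 over the pairs, which is 8.58-fold, 10.4-fold and 14.7-fold lower in YFP-positive cells. Arrays of number 3 were the highest and those of number 1 the lowest in both groups, so part of the spread within a group was shared by the arrays of a number. With the replicate number as a block the SE fell from 0.46 to 0.21 and the adjusted p in limma was 0.0444.

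Of the 4 pirin genes 1 passed over all genes, against a background of 1.08% of all genes in either direction and 0.224% lower in YFP-positive cells (0.544% and 0.0483% with the replicate block). Since the family was picked with this difference known, nothing is read from that count. Groups did not overlap in the lower direction for 1 of the 4, against 4.34% of all genes in that direction and 9.3% in either. The call was lost in most fits that left out 1 array, and those fits also rest on fewer arrays. Leaving out 1 array kept the PRN difference between -3.03 and -3.81, but the adjusted p in limma stayed under 0.05 only without YFP-negative replicate 1 (0.0428), and rose to 0.0773 without YFP-negative replicate 2, 0.0737 without YFP-negative replicate 3, and 0.108, 0.115 and 0.135 without YFP-positive replicates 1, 2 and 3.

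Among the 37 genes lower in YFP-positive cells PRN ranked 17th of 37 by size of difference, near their median of -3.19. With the replicate block 5 of these 37 also passed, and PRN was among them. The others were ChiC, a class V chitinase, the immune receptor kinase gene EFR, which recognises bacterial elongation factor Tu, the bHLH transcription factor gene AT4G20970, and AT5G20790. PRN was 1 of 19 genes that were lower in YFP-positive cells by over 3 log2 units in every pair, a limit chosen after the values were seen.

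PRN2 did not separate the groups. In YFP-negative cells its log2 level was 8.28, 7.73 and 8.59 over replicates 1 to 3, and in YFP-positive cells it was 8.32, 7.37 and 7.93. The ranges overlapped over most of their width, and replicate 1 was marginally higher in the YFP-positive array. The means were 8.20 ± 0.43 (SD, n = 3) and 7.87 ± 0.48 (SD, n = 3), and the log2 values differed by -0.33 (SE 0.37, 95% interval -1.23 to 0.56). PRN2 therefore did not pass (adjusted p = 1.0 in limma, 0.542 with the replicate block). The interval, from 2.34-fold lower to 1.48-fold higher in YFP-positive cells, leaves out a difference as large as that of PRN and includes a lowering by more than 2-fold. That interval comes from the fit without the replicate block. With the block the SE of PRN2 was smaller, 0.20, and no interval is given for that fit. The pair differences of PRN2 were 0.04, -0.37 and -0.67.

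**Figure D2:**
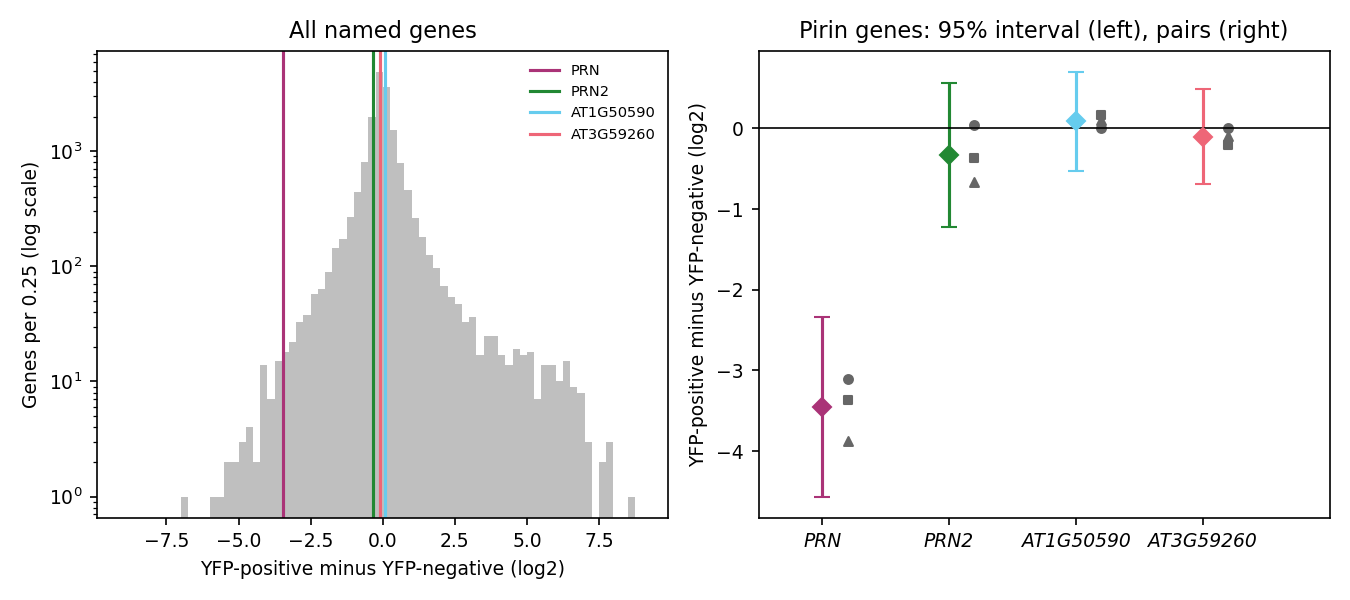
Left, histogram of the YFP-positive minus YFP-negative log2 difference of all 16550 named genes on a log count axis, with the 4 pirin genes as vertical lines. Right, the limma difference of each pirin gene with its 95% interval (diamonds) and the 3 differences between same-numbered arrays (grey symbols); PRN lies at -3.45 and the intervals of the other 3 genes include 0.

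The gap between PRN and PRN2 was wider on the YFP-positive arrays. PRN minus PRN2 on the same array was -1.37, -0.23 and -0.14 in the negative arrays of numbers 1 to 3, and -4.51, -3.24 and -3.35 in the positive arrays. The groups did not overlap, and the difference of the gap was -3.12, with -3.14, -3.0 and -3.21 in the 3 pairs. Since the family was chosen by the difference of PRN, this is a description with no test. The gap is in log2 units of different probe sets, so its change between arrays can be read and its size on 1 array cannot. This comparison was chosen after the values were seen.

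AT1G50590 and AT3G59260, the less studied members of the family, were dim on every array. For AT1G50590 the YFP-negative arrays of numbers 1 to 3 read 1.13, 1.37 and 1.04, and the YFP-positive arrays 1.13, 1.53 and 1.14. For AT3G59260 they read 1.13, 0.98 and 1.25, and 1.13, 0.77 and 1.15. All 12 values lay under the median of their array, which ran from 2.1 to 2.92, and the groups overlapped for both genes. On both arrays of number 1 the genes carried the same value, 1.13, which 3220 probe sets (8.38%) shared on the YFP-negative and 3178 (8.27%) on the YFP-positive array. The log2 differences were 0.09 (SE 0.25) for AT1G50590 and -0.10 (SE 0.24) for AT3G59260, each with an adjusted p of 1.0 in limma. No detection call was at hand, and these values show a low signal and not whether a transcript was present, and no fold is given.

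The place of a gene among all probe sets of its array does not depend on the scale of the array. PRN lay above 81.9% to 91.7% of all probe sets on the YFP-negative arrays and above 58.8% to 68.5% on the YFP-positive arrays. In YFP-positive cells PRN was still 1.20 to 1.93 over the array median, and above 56.15% to 67.4% of named genes. The medians of those arrays were themselves low, at 2.20 to 2.92, and no detection call was at hand. PRN2 lay above 90.8% to 92.3% of probe sets in YFP-negative and above 88.6% to 91.2% in YFP-positive cells. AT1G50590 lay above 8.06% to 37.1% and AT3G59260 above 4.96% to 16.6%. These are positions of probe sets with unlike brightness, so they do not rank the transcripts of the paralogues against each other.

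**Figure D3:**
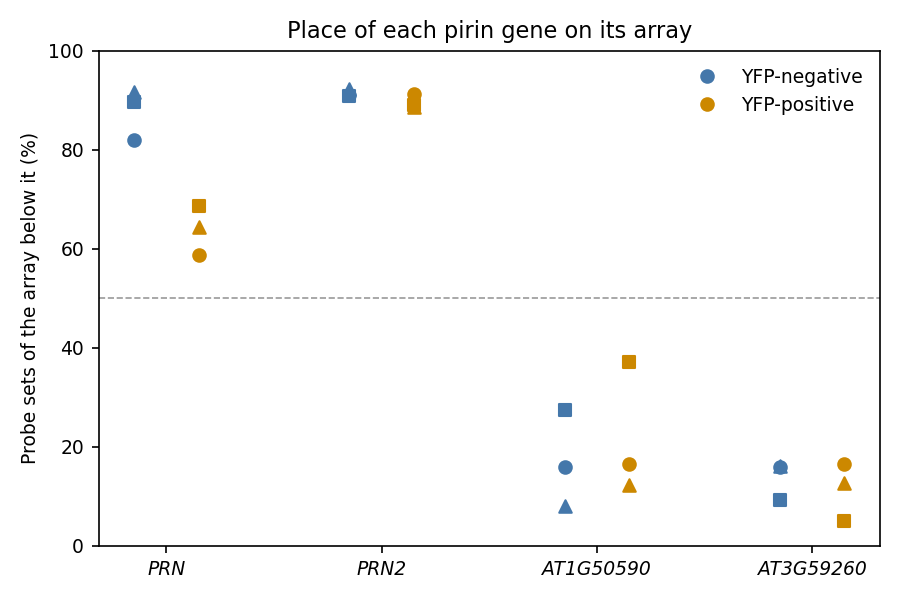
Percent of the 38408 probe sets of an array that lie below each pirin gene, for YFP-negative (blue) and YFP-positive (orange) arrays, with circles, squares and triangles for numbers 1, 2 and 3 and a dashed line at the array median. PRN moves from 81.9% to 91.7% down to 58.8% to 68.5%, and PRN2 stays at 88.6% to 92.3%.

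PRN and AT3G59260 lie close together on chromosome 3, with 4 protein-coding genes between them in the reference gene table, of which 3 were measured, AT3G59230, AT3G59240 and AT3G59250. Those 3 ranged from 0.79 to 1.56 on the log2 scale and lay under the array median on all arrays. The gene next to PRN on its other side, AT3G59210, of the F-box family whose proteins select targets for degradation, was above the median on all arrays and had a log2 difference of -0.40 (SE 0.64, adjusted p = 1.0 in limma). None of these 4 genes passed.

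Over the 3 nearest measured genes on either side of each of the 4 pirin genes, 21 genes in all, 0 passed in limma with or without the replicate block. At an unadjusted p under 0.05 there was 1 without the block, AT1G50630, and there were 2 with it, AT1G50630 and AT2G43150. Over all genes such a p was reached by 7.96% without and 13.8% with the block, so these counts do not stand out from the background. Their log2 differences ran from -0.93 for AT2G43150, close to PRN2, to 1.83 for AT1G50630, close to AT1G50590. AT1G50630 stood at 7.59, 7.45 and 7.09 in YFP-negative and 9.83, 8.50 and 9.29 in YFP-positive replicates 1 to 3, without overlap, at an adjusted p of 0.137 in limma (0.126 with the block). Over all genes, 9.3% did not overlap between groups in either direction.

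**Figure D4:**
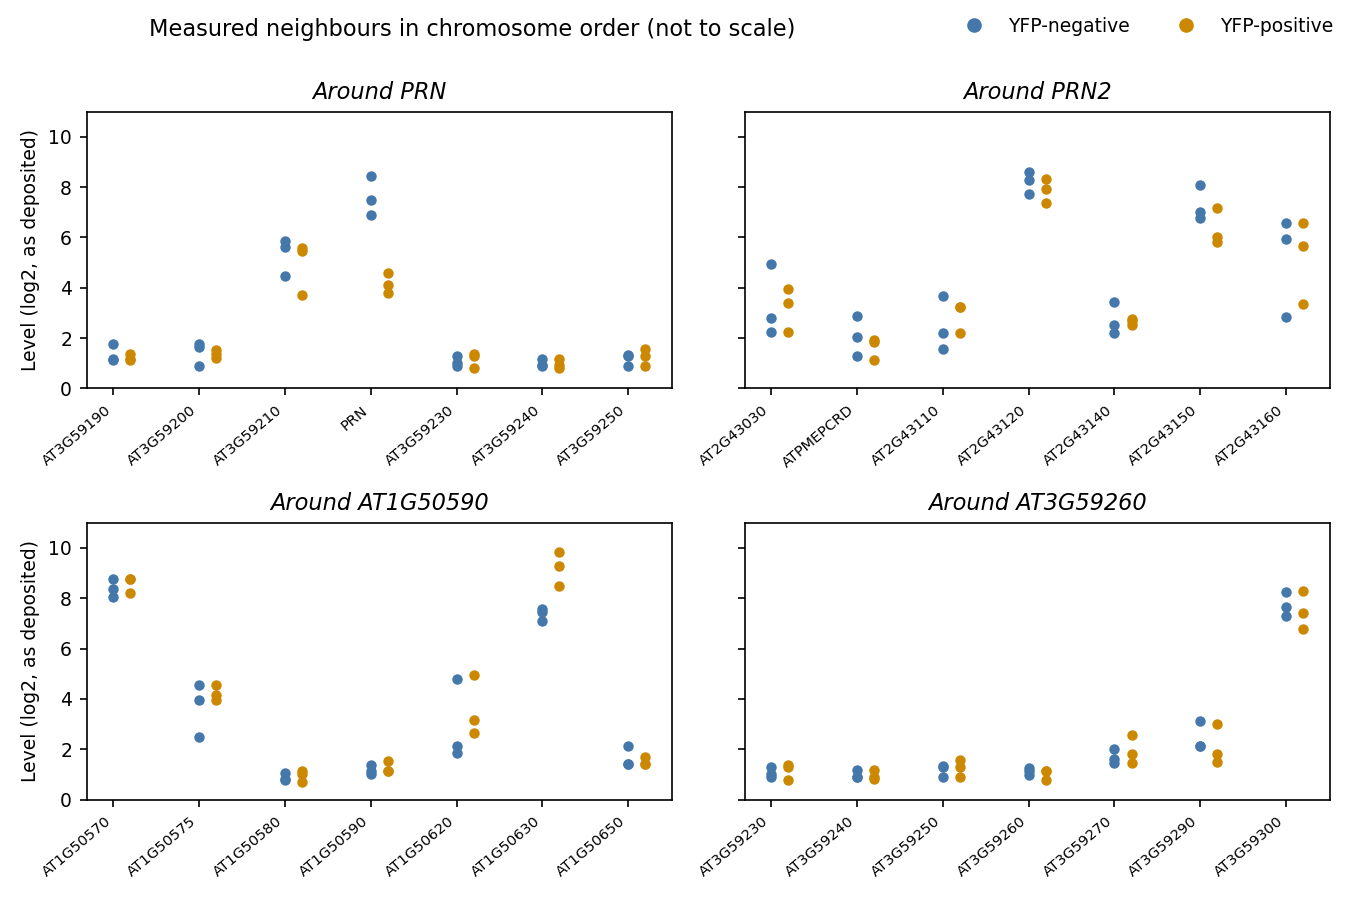
Levels (log2, as deposited) of each pirin gene and the 3 nearest measured genes on either side, in chromosome order and not to scale, with a point per array in blue for YFP-negative and orange for YFP-positive cells. PRN is the only gene of its window with a called difference; AT1G50630 lies at 7.09 to 7.59 in YFP-negative and 8.50 to 9.83 in YFP-positive arrays and did not pass.

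The genes whose levels followed PRN most closely over the 6 arrays were AT3G44100, of the MD-2-related lipid recognition family, with Pearson r = 0.998, AT3G51440, of the strictosidine synthase-like family, with r = 0.993, and AT5G65380, of the MATE transporter family, with r = 0.993. They were taken from 8193 genes with a mean above that of the median gene and at most a pair of equal values over the 6 arrays. Of these genes, 43 had r over 0.95 with PRN. With 6 arrays in 2 groups, any gene that is lower in YFP-positive cells and shares the shifts between arrays of different numbers has a high r, so the values are a description. AT3G44100 differed by -1.69 (SE 0.30), AT3G51440 by -2.36 (SE 0.36) and AT5G65380 by -1.91 (SE 0.37). AT3G51440 passed in limma at an adjusted p of 0.0494 (0.0685 with the block), and AT3G44100 and AT5G65380 did not (0.0776 and 0.0951).

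PRN2 was most like the chloroplast gene ndhF, a subunit of the plastid NDH complex, with r = 0.992, and AT5G05530 and AT1G65346, each with r = 0.991. Like PRN2, all 3 were lowest on the arrays of number 2 in each group, and their log2 differences between groups were -0.45, -0.41 and -0.76, none of which passed. Of the 8193 genes compared, 96 had r over 0.95 with PRN2, so these 3 do not stand apart. PRN2 itself ranged over 0.86 within the negative and 0.95 within the positive group, against a difference of -0.33 between the group means. For the dim genes the highest r was 0.972, with GSTU25, a glutathione S-transferase gene, for AT1G50590, and 0.994, with AT1G06470, for AT3G59260. Genes with r over 0.95 numbered 2 for AT1G50590 and 114 for AT3G59260. All r values of the dim genes rest on levels under the array median.

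**Figure D5:**
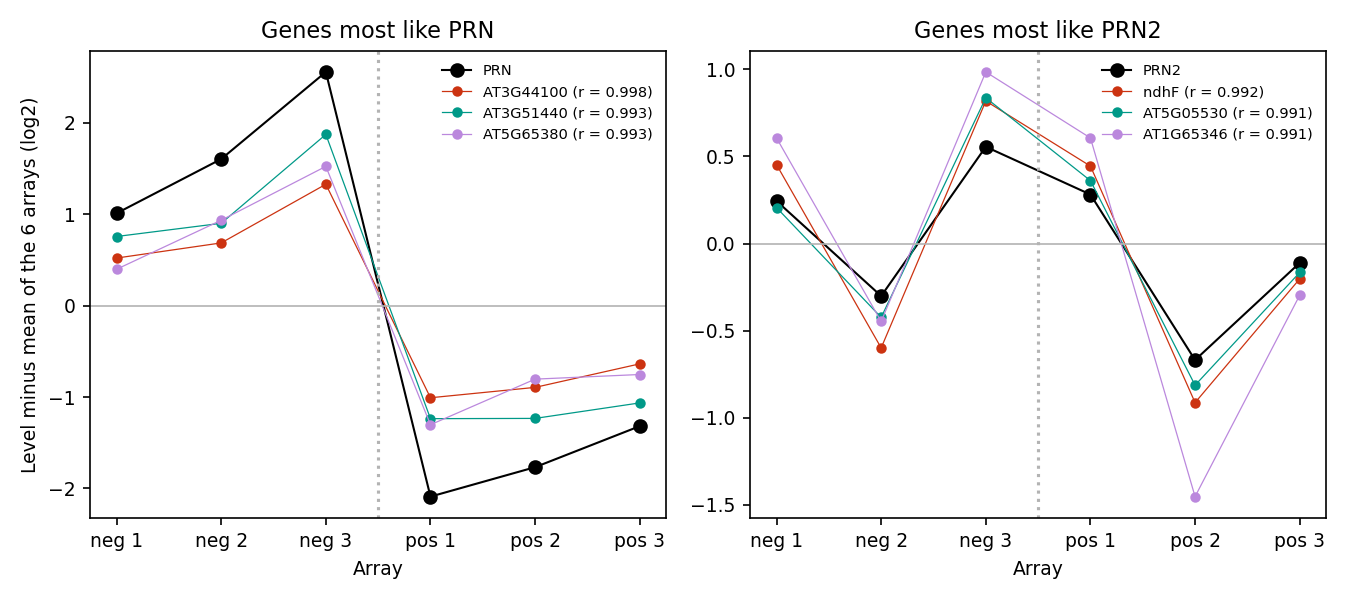
Levels of PRN (left) and PRN2 (right) and of the 3 genes most like each by Pearson r over the 6 arrays, as log2 values minus each gene's mean; thin lines only join the values of a gene. PRN and its 3 genes part the YFP-negative from the YFP-positive arrays, and PRN2 and its 3 genes are lowest on number 2 in both groups.

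Genes tied to pirins by function were mostly not measured under a name. Of the 7 listed genes of the heterotrimeric G protein, the 20 subunits of the CCAAT-binding NF-Y factor through which PRN is thought to act, and 4 genes tied to PRN2 (XCP1, XCP2, HUB1 and HUB2), 0 were analysed here. Of 20 genes of lignin synthesis 2 were measured and 0 passed in limma, nor did any have an unadjusted p under 0.05 without the block. HCT, a hydroxycinnamoyl transferase of the monolignol pathway, had levels of 8.98, 7.61 and 7.48 in YFP-negative and 8.17, 7.11 and 6.50 in YFP-positive replicates 1 to 3, a log2 difference of -0.77 (SE 0.59, adjusted p = 1.0 in limma). CCR2, a cinnamoyl-CoA reductase linked to defence, had 8.43, 6.82 and 6.52 against 7.23, 5.71 and 5.16, a difference of -1.23 (SE 0.72, adjusted p = 1.0 in limma). Both overlapped between groups, although the YFP-positive array was the lower of each pair, with pair differences of -0.51 to -0.98 for HCT and -1.11 to -1.37 for CCR2. The replicate block brought the adjusted p in limma to 0.172 for HCT and 0.0735 for CCR2. With that block both had an unadjusted p under 0.05 in limma, as did 13.8% of all genes.

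Of 10 genes of flavonol synthesis, the pathway of quercetin, 2 were measured and 0 passed in limma, also at an unadjusted p under 0.05. UGT78D1, a flavonol rhamnosyltransferase, ranged from 1.13 to 3.01 in YFP-negative and 0.87 to 1.74 in YFP-positive cells, and UGT78D2, a flavonoid glucosyltransferase, from 1.90 to 3.82 and 1.95 to 2.55. Each was over its array median on 1 of 6 arrays, and the differences, -0.61 and -0.47, came mostly from number 3 (-1.27 and -1.51). The 2 lists had medians of -1.0 and -0.54, against -0.04 over all genes, each from 2 genes.

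Both measured mesophyll markers, of 5 listed, had lower values on every YFP-positive than on any YFP-negative array, as did 4.34% of all genes, and neither passed. PSBW, a photosystem II subunit, differed by -1.13 (SE 0.41, adjusted p = 0.502 in limma) and RCA, which activates Rubisco, by -0.71 (SE 0.33, adjusted p = 0.754 in limma). The unadjusted p in limma was 0.0329 for PSBW and 0.0713 for RCA, and 7.96% of all genes had one under 0.05. With the replicate block the adjusted p in limma was 0.174 for PSBW and 0.455 for RCA. The sum of their log2 levels was 13.4 to 15.3 on YFP-negative and 12.4 to 12.8 on YFP-positive arrays. Of 4 markers of epidermis and guard cells 2 were measured, and the sum of FMA and MUTE was 2.39 to 7.47 against 2.13 to 3.60. MUTE was under the array median on all arrays, and FMA was over it on 1, YFP-negative replicate 3. SWEET11, the 1 measured of 4 genes of companion cells and phloem parenchyma, ranged from 2.29 to 7.92 and from 1.39 to 5.08. Whether these cells contributed to the PRN difference was not tested.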

How the data were processed

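Of the submitters' 6 Affymetrix arrays, 1 table of 38408 probe sets was used. The authors' deposited values are on a log2 scale, judged by their range, and come from RMA, a background, normalization and summary method named in the submitters' processing notes without settings. Signal over background was not analysed here. Same-numbered arrays shared exactly equal values for 13489, 1961 and 1860 probe sets of numbers 1 to 3, and how arrays of different numbers were put on a scale is unknown.

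Probe sets with exactly 1 gene (16722) were named through the platform annotation. Symbols came from RefSeq's TAIR10.1 gene table, which held 16411 of the 16550 genes. Where a gene had several probe sets, the brightest on average was used. The order of genes on a chromosome came from the RefSeq table, and no coordinates are given.

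Differences were fitted with limma 3.58.1 in R 4.3.3 (lmFit, eBayes, two-sided, no filter, Benjamini-Hochberg over 16550 genes, threshold 0.05). The fit was run on simulated data with independent noise on each array. Those data lacked the shifts shared by arrays of a number, so they do not test the fit under such shifts. The members and gene lists were chosen with earlier results of these data known. Named were the 4 pirin genes, list members past the threshold or else the 3 with the largest difference, the 3 most correlated genes and the 3 nearest measured genes on either side. The markers, and genes passing both fits, stand beside them. Replicate numbers come from the titles. Deviations from group means correlated across genes at 0.66, 0.61 and 0.49 for same-numbered arrays. Between a YFP-negative and a YFP-positive array of different numbers they correlated at -0.475 to -0.19. The main fit did not use the numbers. Pair differences and fits with the replicate number as a block are given beside it. The number of arrays limits the precision.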

Additional observations from a re-analysis of the deposited data

How the results depend on the processing

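PRN was lower in YFP-positive cells under all 18 alternatives, by -3.03 to -3.81 on the log2 scale. Leaving out arrays could not turn that sign, since the groups did not overlap. It passed under the 9 that kept all arrays (adjusted p from 0.00559 to 0.0444 in limma, 0.0407 with quantile normalization) and in 1 of 9 that left out 1 or 2 arrays, where the adjusted p ran up to 0.296. Fewer samples entered those fits, and without both arrays of number 1, 2 or 3 the difference was -3.62, -3.49 or -3.24. PRN2 did not pass under any of the 18, at -0.57 to -0.08. The dim genes turned sign. AT1G50590 had -0.0065 with median centring and -0.045 to 0.18 when arrays were left out, and AT3G59260 had -0.17 to 0.023. The 2 dim genes could not be fitted with the filter on dim genes, which removes them.

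The count of genes past the threshold was 179 (142 higher, 37 lower). It was 90 with the replicate block, 281 with quantile normalization and the replicate block, 384 (265 higher, 119 lower) with median centring, 338 among genes above the median mean and 307 with an intensity trend. Leaving out arrays gave 0 to 164. The 0 came without both arrays of number 1 or of number 3 in limma (1257 and 823 genes at an unadjusted p under 0.05). The block changed no call of a pirin gene. Median centring moved the median difference of all genes from -0.04 to -0.13. Without signal over background, nothing can be said of the presence of the dim genes.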
